A study of Mus musculus with 4 samples.

Results

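METTL3 occupancy was examined at the 4 pluripotency genes Sox2, Nanog, Pou5f1 and Dppa3 of mouse embryonic stem cells with ChIP-seq, in which protein-bound DNA is immunoprecipitated and sequenced. All peaks whose centre lay within 150 kb of the annotated body of one of these genes were taken from the peak lists of both immunoprecipitation (IP) replicates. The rule found 3 of the 353 peaks of replicate 1 and 4 of the 281 peaks of replicate 2, or 7 of 634 listed peaks in all. They made up 4 distinct sites, 3 beyond the end of Sox2 and 1 inside Nanog. All cells were wild type and of strain C57BL/6. Their medium held serum, the cytokine LIF, the GSK3 inhibitor CHIR99021 and the MEK inhibitor PD0325901. The 4 libraries were 2 IPs with a rabbit antibody to METTL3 and 2 inputs, sonicated chromatin taken before IP, and the authors called peaks in each IP against the input that carries the same number. IP replicates 1 and 2 held 22246555 and 21793898 tags (aligned reads), and their inputs about 24800000 and 14900000, the latter inferred from the caller's scaling of input against IP. The sources used here do not say whether the replicates were separate cultures, so the spread between replicates may be technical. No cells without METTL3 and no control antibody were analysed here. Peaks were thus judged against input alone, and their specificity for METTL3 was not tested.

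METTL3 is the catalytic subunit of the enzyme that places N6-methyladenosine on RNA while it is being transcribed, and it can be crosslinked to chromatin at some genes. OCT4 (encoded by Pou5f1), SOX2 and NANOG are the transcription factors at the core of the network that holds embryonic stem cells in the pluripotent state. OCT4 and SOX2 bind DNA together at a composite element and act on their own genes and on Nanog. Dppa3, also called Stella, encodes a maternal factor that protects DNA methylation in the early embryo, and it is a neighbour of Nanog on chromosome 6. In these cells each of the core genes is driven by enhancers as well as by its promoter. For Sox2, a distal cluster known as the Sox2 control region, somewhat over 100 kb beyond the gene, carries most of the activity.

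METTL3 peaks lay far beyond Sox2, within Nanog in replicate 2 alone, and were absent from both lists within 150 kb of Pou5f1. None overlapped the promoter stretches held for these genes. To show which sequence this concerns, the 250 bases before the annotated start of each gene with an entry are given below, from RefSeq on GRCm38.p6 (the assembly of mm10), plus strand, 5′ to 3′. Entries were held for 3 of the 4 genes, and Dppa3 had none. Capitals mark the octamer core TTTGCAT, the bases contacted by OCT4, and the SOX core ACAATG, each searched on both strands, so that an octamer core on the minus strand reads ATGCAAA.
Sox2 (chr3:34649745-34649994): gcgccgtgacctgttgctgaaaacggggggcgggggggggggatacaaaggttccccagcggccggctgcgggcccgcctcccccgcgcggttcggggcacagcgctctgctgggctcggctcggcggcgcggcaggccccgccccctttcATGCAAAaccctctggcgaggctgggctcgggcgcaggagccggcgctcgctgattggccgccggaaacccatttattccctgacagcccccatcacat
Nanog (chr6:122707239-122707488): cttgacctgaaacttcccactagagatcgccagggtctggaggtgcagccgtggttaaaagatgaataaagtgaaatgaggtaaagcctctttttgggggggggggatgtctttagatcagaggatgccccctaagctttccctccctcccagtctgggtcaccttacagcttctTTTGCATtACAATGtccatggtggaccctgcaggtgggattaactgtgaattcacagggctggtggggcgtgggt
Pou5f1 (chr17:35505782-35506031): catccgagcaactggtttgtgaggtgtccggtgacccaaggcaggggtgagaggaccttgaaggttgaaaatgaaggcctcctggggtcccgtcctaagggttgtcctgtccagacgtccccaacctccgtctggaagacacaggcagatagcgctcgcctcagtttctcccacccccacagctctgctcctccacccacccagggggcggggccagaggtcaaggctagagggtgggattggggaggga

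The Sox2 stretch held 1 octamer core, 99 bases before the start, and the Pou5f1 stretch shown held neither motif. A second Pou5f1 entry, for a start inside the gene at 35508807, held 1 SOX core, 158 bases before that start, and no octamer core. In Nanog the octamer core began 75 bases before the start and the SOX core 67 bases before it, with 1 base between them, which is the spacing of the composite OCT4 and SOX2 element. This spacing was searched because it is known at Nanog. Of 32851 promoter stretches of the same length, 4.12% held the octamer core, 10.7% the SOX core and 0.00609% the pair at this spacing, the last being the 2 overlapping entries of Nanog alone. No METTL3 peak of either list overlapped any stretch held for the 3 genes. The nearest peak to the Nanog stretch was centred 4.173 kb after the start of the gene, and the nearest to the Sox2 stretch 95.46 kb after the start.

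**Figure D1:**
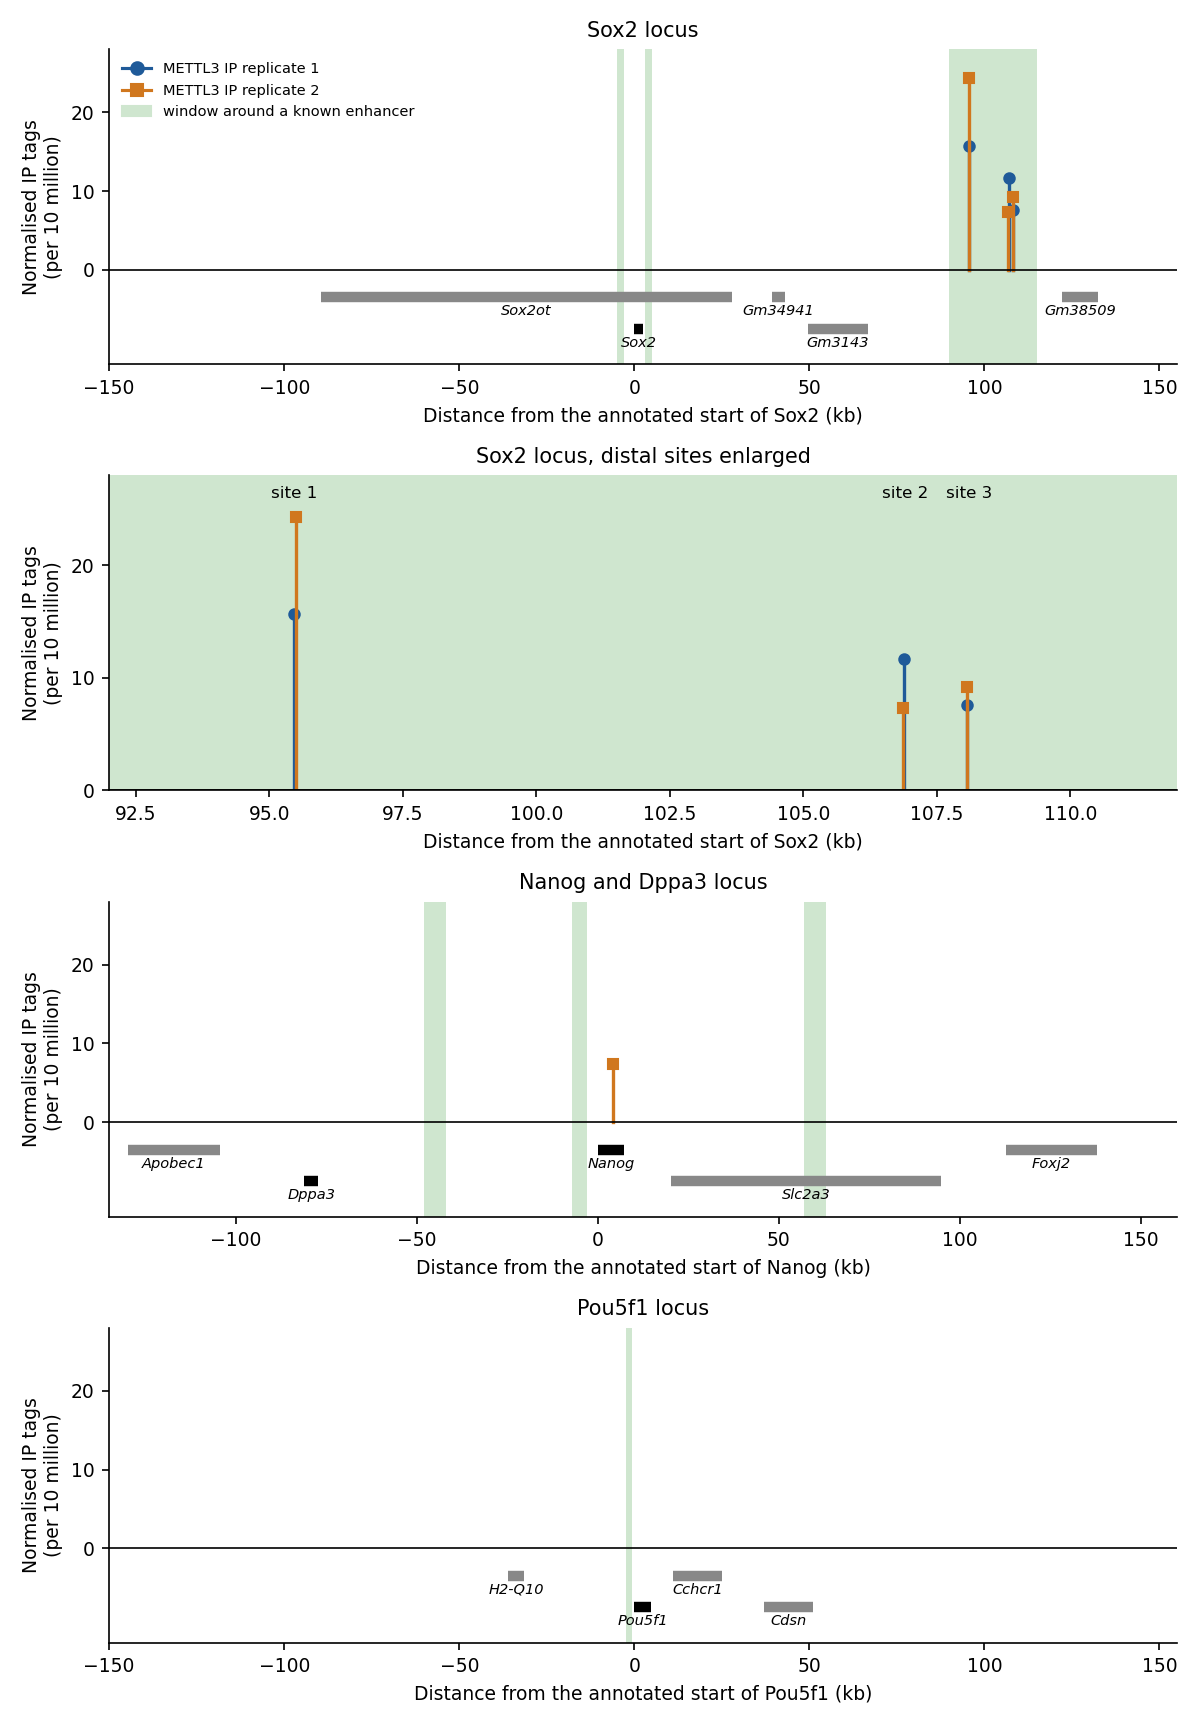
METTL3 peaks at the loci, with distance from the annotated gene start in kb on the x axis and normalised IP tags per 10000000 tags on the y axis. Circles and squares are peaks of IP replicates 1 and 2, bars are selected genes (black, the genes studied), and green bands are windows around known enhancers. The 3 Sox2 sites stand 95.46 to 108.1 kb after the start, Nanog has 1 square and no circle, and the Pou5f1 panel holds no peak.

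All 3 sites beyond Sox2 were listed in both replicates. Heights are the caller's normalised tag count, that is, IP tags per 10000000 tags in the library, and intervals in this section are exact 95% intervals that cover counting error only. The first site, called site 1 here, was centred 95.46 kb after the start of Sox2 (chromosome 3, 34745373 to 34745543 on mm10). It reached 15.7 in replicate 1 (interval 11.0 to 21.9) and 24.3 in replicate 2 (18.2 to 31.8), or 20.0 ± 6.08 (SD, n = 2). This was the tallest of the 3 sites in both libraries.

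Site 2 was centred 106.9 kb after the start (34756806 to 34756976). Its height was 11.7 in replicate 1 (7.63 to 17.1) and 7.34 in replicate 2 (4.20 to 11.9), or 9.52 ± 3.08 (SD, n = 2). Site 3 lay 1.16 kb further on (34757968 to 34758138) and reached 7.64 (4.45 to 12.2) and 9.18 (5.61 to 14.2), or 8.41 ± 1.09 (SD, n = 2). Sites 2 and 3 thus stood as a close pair, 11.4 kb from site 1, and they changed places in the order of height between the replicates. Their counting intervals overlapped in each library, so the pair could not be ordered at this depth. The interval of site 1 overlapped those of both others in replicate 1 and neither in replicate 2.

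The same sites were found at nearly the same positions in both lists. The calls of site 1 overlapped by 126 bp, those of site 2 by 141 bp and those of site 3 by 166 bp, in peaks 171 bp wide in replicate 1 and 169 bp wide in replicate 2. Their centres were 44.0, 29.0 and 4.00 bp apart. Over the whole lists, 55.2% of the peaks of replicate 1 and 69.4% of those of replicate 2 were shared, meaning that they overlapped by at least 1 bp. At Sox2 this held for 3 of 3 peaks in each list, and for the 4 sites together for 3 of 3 and 3 of 4.

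Between replicates, no difference in IP tags beyond counting error was detected at the 3 sites. Shared peaks had passed the caller in both lists, so sites that differed strongly could be missing from this comparison. Site 1 held 35 and 53 IP tags, a ratio of replicate 2 to replicate 1 of 1.55 (0.990 to 2.44) given the library totals. For site 2 there were 26 and 16 tags (ratio 0.628, 0.315 to 1.22), and for site 3 there were 17 and 20 (1.20, 0.597 to 2.44). An exact binomial test over all 195 shared peaks gave unadjusted p values of 0.0544, 0.165 and 0.624, and the Benjamini-Hochberg adjusted p was 1.00 for each. The same test called 0% of the 195 shared peaks, and 3 of them had an unadjusted p under 0.05. The log2 ratios of sites 1 and 2, at 0.63 and -0.67, were nonetheless among the wider ones, 16th and 12th of 195 by size, where the SD over all shared peaks was 0.35.

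Input was low at all 3 sites, and few input tags stood behind each fold. The deposited IP tag columns gave 35.0, 27.0 and 17.0 tags for sites 1 to 3 in replicate 1, where they are unscaled. In replicate 2 the column is scaled to the input library and gave 36.1, 10.9 and 13.6. The deposited control columns gave 0.9, 0.4 and 3.6 in replicate 1, scaled to the IP library, and 4.0, 1.0 and 1.0 unscaled tags in replicate 2. In whole input tags these were 1, 0 and 4 in replicate 1, the 0.4 being the caller's stand-in for 0, and 4, 1 and 1 in replicate 2. Sites 1 and 3 thus had 1 input tag in one replicate and 4 in the other, in opposite directions.

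The folds over input did not order the sites, since their intervals overlapped within each replicate. Because the peaks were listed because IP exceeded input, the folds describe them and carry no test. Site 1 was 39.0-fold over input in replicate 1 (6.56 to 1590) and 9.04-fold in replicate 2 (3.33 to 34.4). Site 2 had no input tag in replicate 1, so no ratio can be given there. With 3 input tags set in place of 0 it was 9.67-fold over input, which leaves out IP counting error. The lower end of the exact interval of site 2 was 7.32. In replicate 2 it was 10.9-fold (1.70 to 458). Site 3 was 4.74-fold (1.55 to 19.4) and then 13.6-fold (2.18 to 565). The intervals of each site also overlapped between the replicates. Summed over the 3 sites, 78 IP tags faced 5 input tags in replicate 1 (17.4-fold, 7.15 to 55.1) and 89 faced 6 in replicate 2 (10.1-fold, 4.47 to 28.3).

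**Figure D2:**
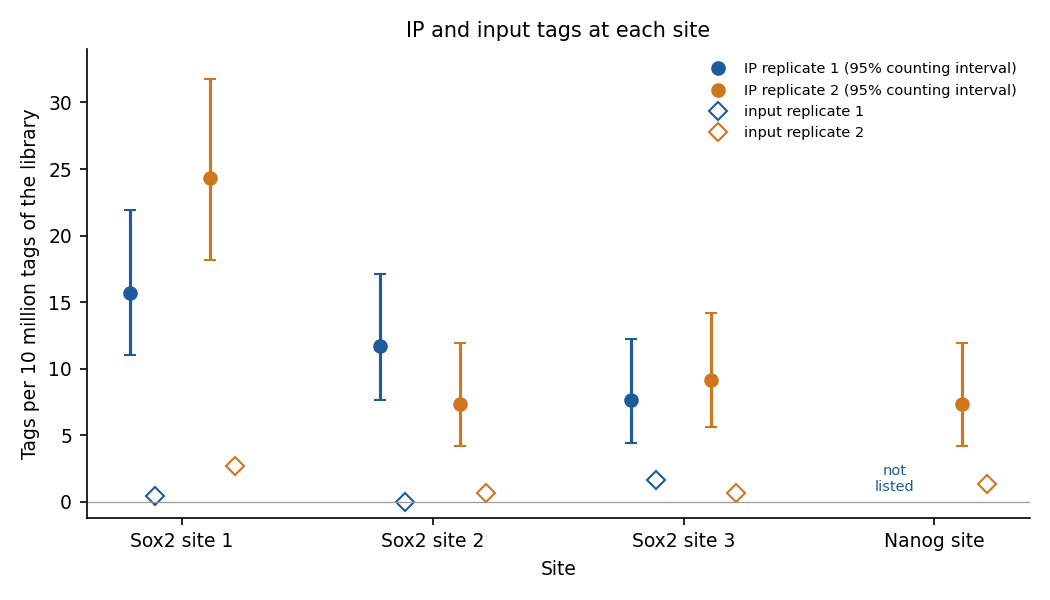
IP tags (filled circles, with exact 95% counting intervals) and input tags (open diamonds) at each site, per 10000000 tags of the library on the y axis, by replicate (blue 1, orange 2). Input stays at or below 2.69 at every site, and site 1 of Sox2 is the tallest in both replicates.

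Against the 10 kb around them, the caller's local fold of site 1 was 13.4 in replicate 1 and 22.5 in replicate 2, above the medians of all listed peaks, 9.03 and 10.4. Site 2 had local folds of 9.06 and 6.16, and site 3 of 5.40 and 7.96. Site 3 thus lay below the median in both lists and site 2 below it in replicate 2. The tags of a sharp site fall on opposite strands on either side of its centre, and the share on the expected side was 83.3% and 84.3% at site 1, 75.6% and 78.3% at site 2, and 76.0% and 82.8% at site 3. The medians of the lists were 81.5% and 81.8%.

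By height, site 1 ranked 39th of 353 in replicate 1 and 13th of 281 in replicate 2, and 23rd of the 195 shared peaks by mean height. Site 2 ranked 78th of 353 and 189th of 281, and site 3 ranked 185th and 124th. By mean height they were 107th and 130th of the shared peaks, whose median was 10.00. Each of this pair thus stood above the median height of the list, 8.09 in replicate 1 and 8.72 in replicate 2, in one replicate and below it in the other. The share of the locus' IP tags that fell in site 1 was 44.9% in replicate 1 (33.6 to 56.6%, exact) and 59.6% in replicate 2 (48.6 to 69.8%).

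**Figure D3:**
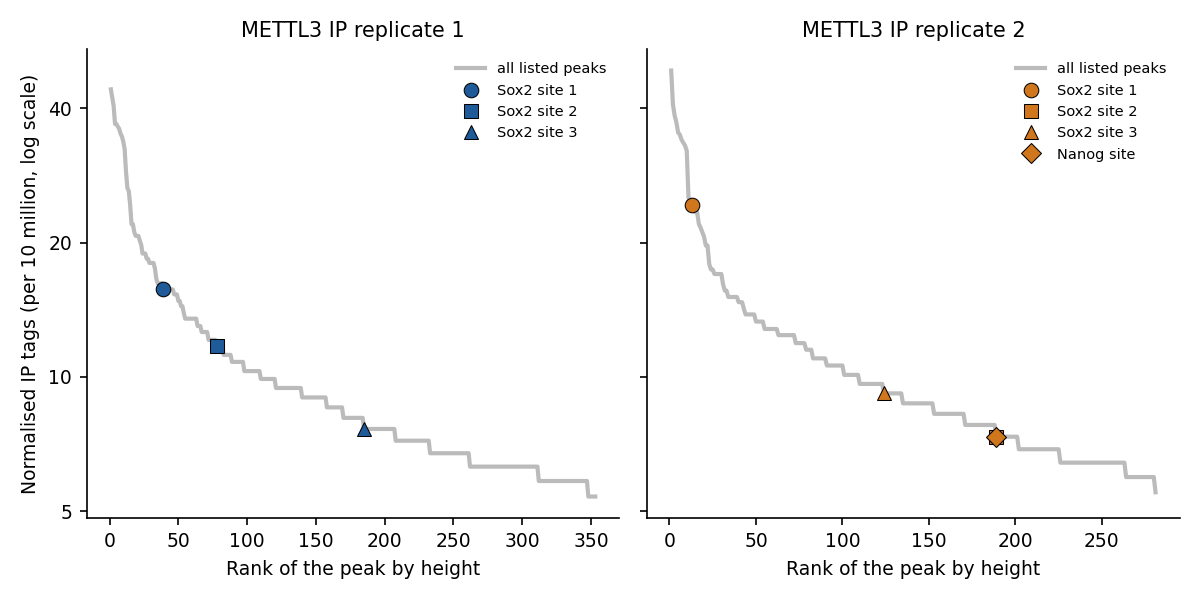
Height of every listed peak (grey; normalised IP tags per 10000000 tags, log scale) against its rank in IP replicates 1 and 2, with the sites at Sox2 and Nanog marked. Site 1 of Sox2 lies on the steep upper part of both curves, at ranks 39 and 13, and the Nanog site and site 2 share rank 189 in replicate 2.

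The 3 sites lay in a stretch without genes, between the long non-coding RNA genes Gm3143 and Gm38509. Site 1 was 28.8 kb from Gm3143 and 26.6 kb from Gm38509, and site 3 was 14.0 kb from Gm38509. Sox2 was the nearest protein-coding gene to all of them, at 93.00 kb from its end to site 1, with Dnajc19, which encodes a mitochondrial protein import factor, next at 664 kb. No other protein-coding gene lay within 150 kb of Sox2. The Sox2 control region is known to begin somewhat over 100 kb from Sox2. Sites 2 and 3, at 106.9 and 108.1 kb, lay past that distance, and site 1, at 95.46 kb, short of it. Published enhancer coordinates were not used here, and the distal Sox2 window had been drawn with these peaks known, so their presence in it is no finding. The proximal enhancers SRR1 and SRR2, about 4 kb before and after the start, held no peak in a window of 3 to 5 kb on either side.

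Nanog held 1 METTL3 site, in replicate 2 alone. The peak (chromosome 6, 122711578 to 122711746) was centred 4.173 kb after the start of the gene, inside its annotated body, and whether it falls on an exon was not analysed here. Its height was 7.34 normalised IP tags (4.20 to 11.9), from 16 IP tags, with deposited values of 10.9 scaled IP tags and 2.0 input tags. It was 5.46-fold over input (1.28 to 48.9), 6.41-fold over its surroundings, and 84.2% of its tags lay on the expected strand side. Its height equalled that of site 2 of Sox2 in the same library, which replicate 1 listed as well.

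The Nanog call stood near the limits of the list. The caller's p over input was 4.65e-05, where 0.0001 was required, and 9 of the 281 peaks had a larger one. Its 16 IP tags compared with a minimum of 12 and a median of 19.0 over the peaks of replicate 2. Among the 86 peaks listed in replicate 2 alone, whose median height was 6.88, it ranked 31st. Of the 93 peaks of replicate 2 at or below its height, 37 (39.8%) were shared. In replicate 1 the nearest listed peak to Nanog lay 2720 kb after the gene (chromosome 6, 125433633 to 125433803; height 15.3, not listed in replicate 2), nearest to Cd9, which encodes a tetraspanin. The nearest shared peak lay 3940 kb before Nanog, inside the calcium channel gene Cacna1c, with heights of 10.3 and 8.26. A list gives no tags for places it leaves out, so whether Nanog carried signal below the threshold in replicate 1 was not analysed here.

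Around the listed peaks, the median local density of IP tags was higher on chromosome 6 than over the other autosomes pooled. The median of its peaks was 1.38 times the pooled one in both replicates. On chromosome 3 it was 0.917 and 1.08 times, and on chromosome 17 it was 0.890 and 1.02 times. At the Nanog site itself the local density came to 2.50 tags per peak width, where the median of chromosome 6 was 2.68 and sites 1 to 3 of Sox2 had 2.36, 2.60 and 2.51 in the same library. Of the peaks of chromosome 6, 11 of 32 in replicate 1 and 11 of 16 in replicate 2 were shared, against the 55.2% and 69.4% of all peaks given above.

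The known stem cell enhancers of Nanog held no peak in either list. They lie about 45 and 5 kb before the gene and about 60 kb after its start, and were searched in windows from 42 to 48, 3 to 7 and 57 to 63 kb. The Nanog site was 7.17 kb from the edge of the nearest of these windows, that about 5 kb upstream. Next to it was Slc2a3, the gene of the glucose transporter GLUT3, 16.1 kb away.

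Dppa3 had no METTL3 peak of its own. The Nanog peak of replicate 2 lay 81.4 kb beyond its end and is the same peak counted for both genes, which stand 77.2 kb apart. Gdf3, a growth factor gene of the TGF-beta family beside Dppa3, was likewise reached by that peak alone. In replicate 1 the nearest peak to Dppa3 was 2800 kb away, and the nearest shared peak 3860 kb away.

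Pou5f1 had no METTL3 peak within 150 kb in either replicate. The windows around its enhancers, from 0.8 to 1.5 kb and from 1.5 to 2.5 kb before the start, were empty, as were its gene body and the bodies of the 13 other protein-coding genes within that distance. The nearest peak in both lists was the same shared one, 1910 kb before the gene (chromosome 17, 33599970 to 33600140) and inside Myo1f, an unconventional myosin gene of blood cells. Its heights were 12.1 and 12.8, with 27 IP tags and 8 input tags in replicate 1 and 28 and 4 in replicate 2. The lists hold no peak of fewer than 12 IP tags, so weaker occupancy at Pou5f1 was not detectable in them.

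**Figure D4:**
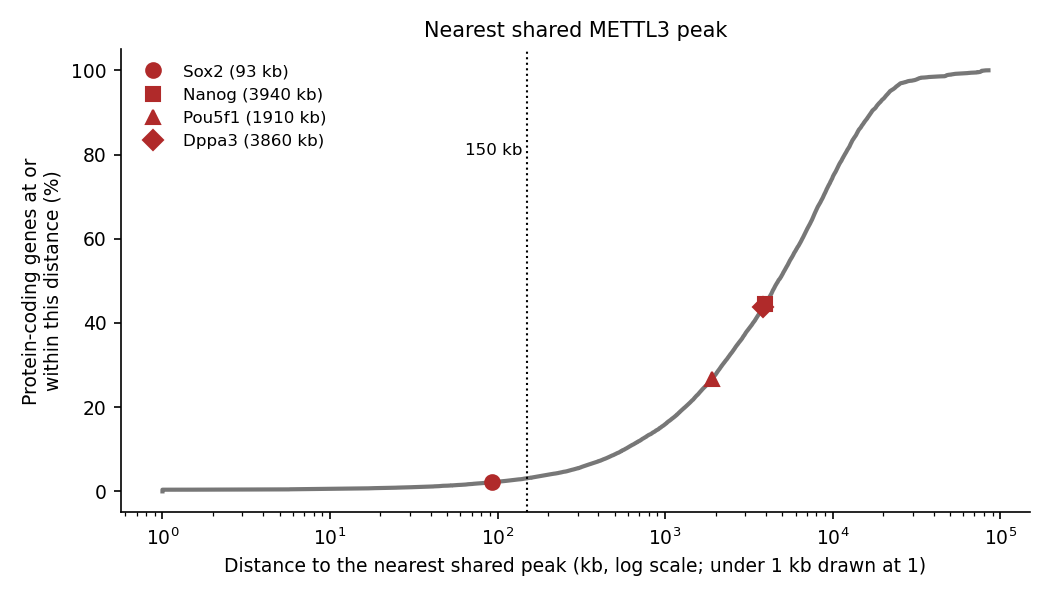
Distance to the nearest shared METTL3 peak (kb, log scale) on the x axis and the share of protein-coding genes at or within it on the y axis (grey curve), with the 4 genes marked in red. Sox2 lies inside the dotted 150 kb line at 93.0 kb, while Pou5f1, Dppa3 and Nanog lie on the slope at 1910, 3860 and 3940 kb.

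Of the 4 genes, only Sox2 had a shared peak within 150 kb, though the others too were nearer to one than the median protein-coding gene. Of 21627 protein-coding genes on chromosomes with a shared peak, 2.15% were nearer to one than Sox2, 26.7% nearer than Pou5f1, 43.8% nearer than Dppa3 and 44.4% nearer than Nanog. The median over these genes was 4730 kb. A shared peak lay within 150 kb of 1 of the 4 genes and of 3.08% of 21883 protein-coding genes. In replicate 1 alone the counts were 1 of 4 against 5.68%, and in replicate 2 alone 3 of 4 against 4.56%, with Nanog and Dppa3 counted through a single peak. The 4 genes were chosen with the peaks known, so these shares describe them and carry no test.

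At least 3 shared peaks within 150 kb were found at Sox2 and at 0.0548% of protein-coding genes, 12 in number. These genes are not all separate loci, since neighbours such as Rad23b and Klf4 were counted through the same peaks. The only other gene of the pluripotency list among these 12 was Klf4, which encodes a zinc finger factor of the naive state. Its 3 shared peaks lay 49.6 to 62.6 kb from the gene and spanned 13.0 kb, where those of Sox2 spanned 12.6 kb. Their heights ran from 8.09 to 12.6 in replicate 1 and from 7.80 to 12.4 in replicate 2, against 7.64 to 15.7 and 7.34 to 24.3 at Sox2. Summed IP over input was 10.7-fold (4.91 to 27.6) and 7.50-fold (3.27 to 21.2) at Klf4, with intervals that overlapped those of Sox2.

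Of 26 other genes of the pluripotency network, 11 (42.3%) had a shared peak within 150 kb, 5 had only unshared peaks, and 10 had none in either list. The share over all protein-coding genes was 3.08%, but this list too was written with earlier results of these data known, so the counts carry no test. Where both calls had to reach a caller's fold of 8, genes with a shared peak numbered 6 in place of 12 of the 30, the 4 genes above included. The share over all protein-coding genes at that fold was not computed. The nuclear receptor gene Esrrb held a shared peak in its body, with heights of 20.7 and 25.2, and so did Tet2, which encodes a 5-methylcytosine dioxygenase, at 33.7 and 48.6. Prdm14, a repressor of differentiation, had one 28.4 kb away (17.5 and 23.4) and Zfp42, the gene of REX1, one 13.8 kb away (20.7 and 22.0). Tcf7l1, the WNT-pathway repressor TCF3, had one 65.5 kb away (10.8 and 8.26). Dppa2 and Dppa4, which encode SAP-domain proteins, shared a single peak of 5.39 and 8.72, at 103 and 128 kb. A peak within 150 kb of a listed gene can lie in or nearer to another gene. The nearest gene to these peaks was not analysed here. The others were Tfcp2l1, Klf4, Klf5 and Myc. Site 1 of Sox2 stood among the taller of these peaks in replicate 2 and below those of Tet2, Esrrb, Klf5, Zfp42, Prdm14 and Myc in replicate 1.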

How the data were processed

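Peak lists of both METTL3 IP libraries were used, and the inputs entered through the caller's control columns. Per the submitters' processing notes, the build was mm10 and the tools were HOMER, Bowtie 1.2.2, Trimmomatic 0.38 and CASAVA, with alignment settings not given in the sources used here. Per the file headers, HOMER findPeaks in factor style was run per IP library, with a false discovery rate of 0.001, at least 14 tags for a putative peak (the recovered tags of listed peaks go down to 12), a Poisson p-value of 0.0001 over input and over the surrounding 10.0 kb, and at most 1 tag per base. Replicates were not pooled.

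The normalised tag count, as deposited, is a signal per 10000000 tags. The authors' other columns are IP tags (a count in replicate 1, a scaled signal in replicate 2), scaled or unscaled input signal, a score, fold ratios and p-values, and the fraction of tags on the expected strand side. Whole IP tags were recovered from the normalised tag count and whole input tags from the control column, and came within 0.11 and 0.044 tags of whole numbers. At site 2 of Sox2 in replicate 1 this gave 26 IP tags, where the tag column has 27.0.

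Genes came from RefSeq on GRCm38.p6, with 1-based positions. Distances run from the peak centre. Folds have exact conditional binomial 95% intervals with library totals as offsets, those of the inputs inferred from the deposited scaling. IP tags of both replicates were compared by the exact binomial test over all shared peaks with Benjamini-Hochberg adjustment (scipy 1.17.1). The test was tried on simulated data with changes larger than those at the Sox2 sites. The genes named are the 4 members and, from a list of 26 further network genes, those with a shared peak, by a rule that also took the nearest peak of a gene with none. Members, lists and enhancer windows were chosen with earlier results of these data known. The windows were written from general knowledge as distances from the gene start. Peak sequences and exons were not analysed here. Alternatives changed the distance, the overlap, the fold threshold, the offsets, the treatment of 0 input tags and the replicates used.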

Additional observations from a re-analysis of the deposited data

How the results depend on the processing

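The number of sites depended mainly on the distance allowed. Within 100 kb there were 2 sites near the 4 genes in place of 4, and 1 of them was shared in place of 3, since sites 2 and 3 of Sox2 lie farther out. Within 50 kb 1 site and 0 shared ones were left, and 200 kb added none. Each replicate alone gave 3 and 4 sites. Requiring a fold of at least 8 in at least 1 list left 3 sites. Requiring it in both lists left 2 shared sites. It also lowered the pluripotency genes with a shared peak from 12 to 6 of 30, members included. The share over all protein-coding genes at that fold was not computed. Without 1 replicate, the count of pluripotency genes was 16 from either list, but the genes differed. Klf2, Tet1 and Dppa5a were counted in replicate 1 alone. Nanog, Dppa3 and Gdf3 were counted in replicate 2 alone, through a single peak. Over all protein-coding genes, 5.68% had a peak of replicate 1 within 150 kb and 4.56% one of replicate 2. Counting peaks as shared by overlap of 0.5 of their width or by centres within 500 bp kept 3. The exact test between replicates called 0 peaks under both alternatives, with 3 at an unadjusted p under 0.05.

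The folds over input rest on few input tags. With tags summed over both replicates, sites 1 to 3 of Sox2 were 15.9-fold, 37.8-fold and 6.67-fold over input. With the replicate number as a block they were 14.9-fold, 39.6-fold and 6.60-fold. Leaving out a replicate moved site 1 between 9.04-fold and 39.0-fold and site 3 between 4.74-fold and 13.6-fold. Site 2 was 10.9-fold without replicate 1. Without replicate 2 it had no input tag, and 3 input tags set in place of 0 gave 9.67-fold. The lower end of its exact interval there was 7.32. Adding 0.5 tags to IP and input gave 25.5-fold at site 2 and 4.50-fold at the Nanog site.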
